A study of Taxus mairei and Taxus cuspidata and Taxus x media with 9 samples.

Results

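Lipoxygenases are iron-containing enzymes that add oxygen to the polyunsaturated fatty acids linoleic and linolenic acid. In the co-assembled twig transcriptome of 3 yew (*Taxus*) species, 21 of 33895 unigenes were lipoxygenases, taken as every unigene whose deposited gene name began with LOX or whose KEGG ortholog text read lipoxygenase. The family was chosen by measured values of 2 members. comp28144_c0 (LOX1.1) was selected on its fold difference between *T. media* and *T. cuspidata*, the largest among unigenes detected in all 6 libraries, and comp14123_c2 (LOX1) on its place in the study's list of JA-related unigenes, which was drawn from these libraries. Both are therefore described without a test in all comparisons. comp19779_c0 (LOX3) is on the same list of the study, so its direction is not independent evidence. The other members entered by annotation alone, with no threshold on a value.

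The study sequenced poly(A) RNA from fresh twigs of 3-year-old cultivated trees, with 3 libraries per species. The 3 groups were *T. media*, which is a hybrid yew with *T. cuspidata* as one parent, *T. cuspidata* and *T. mairei*. Species was the one difference the labels give: all trees were grown in one chamber at 25 °C with 12 h of light, and no group received an agent or carried an introduced allele. The methods give 5 trees per species and 3 biological replicates, but not which trees went into which library, so the p-values below measure the spread between these libraries. A twig holds needles and stem, and in such bulk samples a smaller share of the cells of one type and less RNA per cell cannot be told apart.

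Plants hold 2 kinds of lipoxygenase, named by the carbon of the fatty acid that receives the oxygen. The 13-lipoxygenases of the chloroplast feed allene oxide synthase, allene oxide cyclase and 12-oxophytodienoate reductase, the route to jasmonic acid (JA), and also the release of leaf volatiles. The 9-lipoxygenases make other oxylipins, known from defense and root development. In Arabidopsis, LOX1 and LOX5 are of the 9 type and LOX2, LOX3, LOX4 and LOX6 of the 13 type. Methyl jasmonate is widely used to raise taxol production in yew cell cultures.

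By these names, 12 members had 9-lipoxygenase names (LOX1, LOX1.x, LOX5) and 7 had 13-lipoxygenase names (LOX2.3, LOX3, LOX3.1, LOX4). The other 2, comp23629_c0 (Os03g0699700) and comp113191_c0 (Os03g0179900), carried rice locus names without a LOX number and were kept apart. Because 20 of the 21 members carried one and the same ortholog (K00454), the ortholog did not separate the types. The plan took K00454 as a 13-lipoxygenase ortholog. All members with 9-lipoxygenase names carried it except comp1434_c0, which had no ortholog, so their name and ortholog differed in class. The classes below rest on the names alone. All 21 carried the GO terms for lipoxygenase activity and iron ion binding. The GO compartment was chloroplast for all 7 members with 13-lipoxygenase names and cytoplasm for 10 of the 12 with 9-lipoxygenase names. The exceptions were the 2 LOX5 unigenes, comp30117_c0 and comp4234_c0, which were placed in the chloroplast.

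Most members were short. In detail, 8 members were longer than 2000 bp and 10 were shorter than 600 bp. Reads were thus spread over pieces whose number need not be the number of genes, and several short pieces may belong to one gene. Levels are given in TPM, which divides reads by length and has one total for every library. A short unigene reaches a high TPM with few reads: comp38164_c0 (245 bp) had 182.92 TPM from 450 reads in *T. cuspidata* replicate 1, whereas comp30080_c0 (3023 bp) had 70.77 TPM from 9545 reads in the same library. All reads were assigned to one assembly of the 3 species. Whether a unigene that was low in one species had its gene's reads on another unigene was not tested.

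The depth of the libraries with counts was 32783199 to 44821323 reads on unigenes. The table of *T. mairei* replicate 3 holds TPM and RPKM without counts, so that library enters every TPM value below but no fitted fold change. Fold changes come from edgeR's quasi-likelihood test on the counts of the other 8 libraries, adjusted by Benjamini-Hochberg over 32624 unigenes, all 21 lipoxygenases among them. A unigene was called when its log2 fold change was beyond 1 in either direction with an adjusted p below 0.05. The label of the tissue was checked by its markers. Needle markers were the 72 unigenes with names starting with LHC, CAB, RBCS or PSA. These are light-harvesting, photosystem I and RuBisCO small subunit names, except PSAT, which the prefix also took in. They summed to 25467 to 46965 TPM in *T. media*, to 57808 to 68451 TPM in *T. cuspidata* and to 4549 to 7962 TPM in *T. mairei*. Of the 72, 0, 25 and 16 were at 0 in all libraries of these species. Wood markers (secondary wall cellulose synthases and similar, 6 unigenes) summed to 37.4 to 42.3, 37.5 to 44.1 and 76.8 to 110.3 TPM, with 1 of the 6 at 0 in all libraries of *T. cuspidata*. Phloem markers (APL, 5 unigenes) summed to 84.6 to 89.3, 30.6 to 35.2 and 12.2 to 13.6 TPM, with 1 of the 5 at 0 in *T. mairei*. Needle, wood and phloem markers were thus detected in each species.

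The family as a whole was most abundant in *T. media* and least in *T. mairei*, and its make-up changed from 9- to 13-lipoxygenase names. Summed over the 21 members, the level was 1520.1, 1687 and 2048 TPM in *T. media*, 1016, 1050.0 and 1101 TPM in *T. cuspidata*, and 312, 369.5 and 410.2 TPM in *T. mairei*. The ranges of the 3 species did not overlap. These sums include comp28144_c0, which was selected on its difference between *T. media* and *T. cuspidata*. It made up 7.11 to 8.23% of the family's TPM in *T. media*.

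The 9-lipoxygenase names summed to 1391, 1549 and 1829 TPM in *T. media*, to 943, 969.6 and 1013 TPM in *T. cuspidata*, and to 51.4, 67.4 and 115 TPM in *T. mairei*. The 13-lipoxygenase names summed to 103, 103 and 155 TPM in *T. media*, to 73.4, 80.2 and 88.5 TPM in *T. cuspidata*, and to 237, 279 and 273 TPM in *T. mairei*. Thus *T. mairei* was below both other species for the first class and above both for the second, with no overlap in either. The gap in the second class depended on comp19779_c0, which is on the study's list and had 86.86, 130.93 and 107.74 TPM in *T. mairei*. Without it, *T. media* replicate 3 would lie within the range of *T. mairei*. Ratios of the first class were also taken without the 2 unigenes that chose the family. They were 1.49 for *T. media* to *T. cuspidata* (1.63 with them) and 22 for *T. media* to *T. mairei* (20.4 with them). For *T. mairei* to *T. cuspidata* the ratio was 0.068 (0.0799 with them).

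Within each library, the ratio of 9- to 13-lipoxygenase names was 13.4 ± 1.63 (SD, n = 3) for *T. media*, 12.1 ± 0.697 for *T. cuspidata* and 0.293 ± 0.111 for *T. mairei*. *T. media* and *T. cuspidata* overlapped in this ratio, at 11.8 to 15.1 and 11.4 to 12.8, while *T. mairei* stayed at or below 0.421. Their closeness depended on the unit: the mean ratio was 16.6 for *T. media* and 9.24 for *T. cuspidata* on RPKM, and 25 and 10.6 on normalized counts. No test is given for these sums, since the 2 named unigenes are part of them and 3 libraries against 3 cannot go below p = 0.1 in an exact two-sided permutation test.

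Of the tissue markers summed above, the needle markers were lowest in *T. mairei* and highest in *T. cuspidata*, and the phloem markers were highest in *T. media* and lowest in *T. mairei*, which is the order of the 9-lipoxygenase names. The wood markers were highest in *T. mairei*, as were the 13-lipoxygenase names. The part of the 3 marker sums in the result was not tested.

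**Figure D1:**
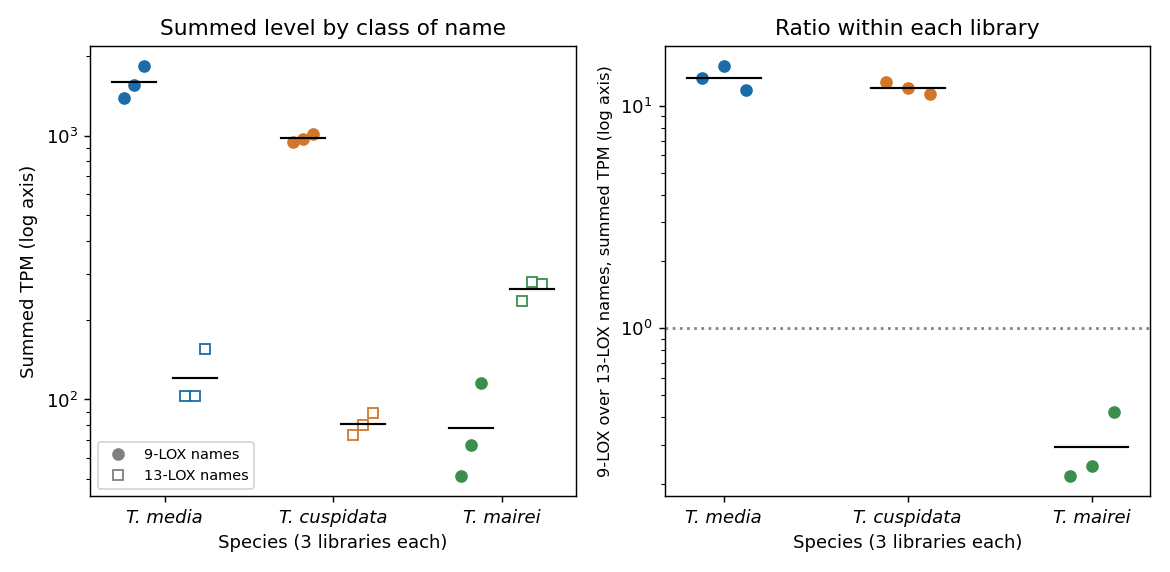
Summed TPM of unigenes with 9-lipoxygenase names (filled circles) and 13-lipoxygenase names (open squares) in each library, and their ratio within each library, both on log axes. Bars are species means (n = 3), and the dotted line marks a ratio of 1. The ratio lies between 11.4 and 15.1 in the libraries of *T. media* and *T. cuspidata* and between 0.217 and 0.421 in those of *T. mairei*.

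A single unigene, comp30117_c0 (LOX5), made up 58.4 to 59.8% of the family's TPM in *T. media* and 61.3 to 63.2% in *T. cuspidata*, but 2.15 to 6.44% in *T. mairei*. In *T. mairei* comp19779_c0 (LOX3) made up 26.3 to 35.4%, and a pair of LOX3.1 unigenes followed at a like level, comp26045_c0 with 15.8 to 20.2% and comp83150_c0 with 15.2 to 18.7%. Without comp30117_c0, a choice made after the values were seen, the other 9-lipoxygenase names still summed to 503 to 621 TPM in *T. media*, to 300.2 to 328 TPM in *T. cuspidata* and to 43.6 to 88.4 TPM in *T. mairei*. The order of the species was then the same, without overlap.

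By its mean level, each species led for some members. *T. media* had the highest mean for 9 members, 7 of them with 9-lipoxygenase names. *T. mairei* had the highest mean for 9 members, 5 of them with 13-lipoxygenase names, and *T. cuspidata* for 3. *T. cuspidata* alone had the lowest mean for 12 of the 21 and *T. mairei* alone for 6, and the other 3 were tied at 0 in a pair of species. In all libraries of a species, 2 members were at 0 TPM for *T. media*, 3 for *T. cuspidata* and 3 for *T. mairei*.

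**Figure D2:**
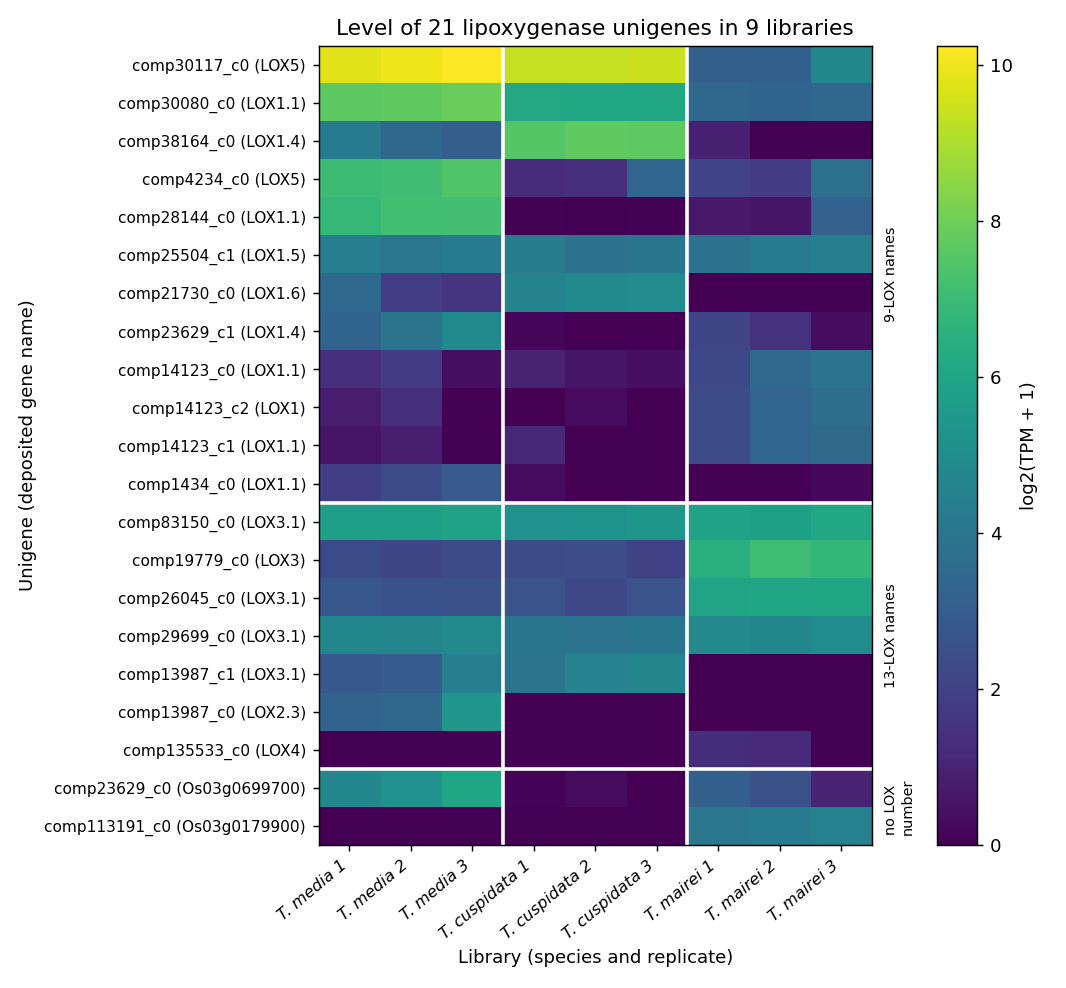
Level of the 21 lipoxygenase unigenes as log2(TPM + 1) in the 9 libraries, with unigenes grouped by class of name and libraries by species. comp30117_c0 is bright in the 6 libraries of *T. media* and *T. cuspidata*, at 642.52 to 1208.14 TPM, while comp19779_c0 and comp26045_c0 stand out in *T. mairei*, at 62.92 to 130.93 TPM.

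Among the 9-lipoxygenase names, 3 abundant long unigenes were highest in *T. media*. comp30117_c0 (LOX5, 3253 bp, 14 transcripts) had 887.42, 1009.56 and 1208.14 TPM in *T. media*, 642.52, 643.95 and 684.73 TPM in *T. cuspidata*, and 7.87, 7.95 and 26.42 TPM in *T. mairei*. Every *T. media* library was above every *T. cuspidata* library, and both species were far above *T. mairei*, whose replicate 3 was higher than the other two. The log2 fold change was 6.72 (SE 0.29) for *T. media* vs. *T. mairei* and -5.07 (SE 0.27) for *T. mairei* vs. *T. cuspidata*, with adjusted p values of 3.8e-06 and 4.3e-06 in edgeR's quasi-likelihood test.

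The size of the difference in comp30117_c0 between *T. media* and *T. cuspidata* depended on the unit. Its counts gave a log2 fold change of 1.65 (SE 0.19, adjusted p = 0.00052, edgeR), whereas limma on log2(TPM + 1) gave 0.64, which was not called. The deposited TPM was 0.715 to 0.76 times the value from reads and the deposited effective length in *T. media*, and 1.43 to 1.72 times that value in *T. cuspidata*. The length behind the TPM of this unigene of 14 transcripts was thus not the same in both species. For comp25504_c1, the only other member with several transcripts, the same quotient was 0.993 to 1.01 in all 8 libraries.

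comp30080_c0 (LOX1.1, 3023 bp) followed the same order with a smaller spread. It had 198.77, 214.56 and 239.82 TPM in *T. media*, 70.77, 68.86 and 67.40 TPM in *T. cuspidata*, and 10.09, 8.72 and 9.84 TPM in *T. mairei*. The 3 species did not overlap. In edgeR's quasi-likelihood test the log2 fold change was 1.58 (SE 0.13, adjusted p = 0.00011) in *T. media* over *T. cuspidata*, 3.83 (SE 0.17, adjusted p = 4.1e-06) in *T. media* over *T. mairei* and -2.26 (SE 0.16, adjusted p = 1.7e-05) for *T. mairei* vs. *T. cuspidata*.

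comp28144_c0 (LOX1.1, 2811 bp), the member selected on its difference, was at a high level in *T. media* alone. It had 112.70, 138.89 and 145.70 TPM in *T. media*, 0.04, 0.01 and 0.03 TPM in *T. cuspidata*, and 0.64, 0.49 and 8.30 TPM in *T. mairei*. In reads, these were 17190, 15946 and 19289 in *T. media* and 5, 2 and 4 in *T. cuspidata*. *T. mairei* replicate 3 thus stood more than 10 times above the other 2 libraries of its species, and it was also the highest of its species for comp30117_c0 and comp4234_c0. The cause was not tested.

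The fitted log2 fold change of comp28144_c0, given as a description, was 12.17 (SE 0.34) in *T. media* over *T. cuspidata*. Over *T. mairei* it was 7.17 without replicate 3 of *T. mairei* and 4.64 with the reads of that library recovered from its RPKM. With that library *T. mairei* was 7.51 log2 units above *T. cuspidata*. Thus 1 library moved the first value by more than 2 log2 units.

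The second LOX5 unigene, comp4234_c0 (285 bp), was also a *T. media* unigene. Its levels were 129.93, 135.46 and 173.70 TPM in *T. media*, 1.46, 1.65 and 9.12 TPM in *T. cuspidata*, and 3.13, 2.52 and 12.74 TPM in *T. mairei*. The other species overlapped each other and stayed far below *T. media*. The log2 fold change was 5.04 (SE 0.69, adjusted p = 0.0011) against *T. cuspidata* and 4.99 (SE 0.83, adjusted p = 0.0014) against *T. mairei* by edgeR. Between *T. mairei* and *T. cuspidata* it was 0.06 (SE 0.75, adjusted p = 0.96), but 1.47 and called without *T. cuspidata* replicate 3.

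In contrast, 2 short 9-lipoxygenase unigenes were highest in *T. cuspidata*. comp38164_c0 (LOX1.4, 245 bp) had 17.62, 9.72 and 7.66 TPM in *T. media*, 182.92, 213.22 and 206.48 TPM in *T. cuspidata*, and 0.91, 0 and 0 TPM in *T. mairei*. comp21730_c0 (LOX1.6, 813 bp) had 10.24, 2.67 and 1.93 TPM in *T. media*, 23.19, 28.01 and 29.86 TPM in *T. cuspidata*, and no read in *T. mairei*. For both, the 3 species did not overlap and the order was *T. cuspidata*, *T. media*, *T. mairei*.

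Their log2 fold changes for *T. media* vs. *T. cuspidata* were -4.19 (SE 0.49, adjusted p = 0.0005) for comp38164_c0 and -2.56 (SE 0.60, adjusted p = 0.015) for comp21730_c0 in edgeR. For *T. mairei* vs. *T. cuspidata*, comp38164_c0 had -8.00 (SE 0.78, adjusted p = 7.3e-05), and *T. media* was above *T. mairei* by 3.81 (SE 0.76, adjusted p = 0.0031), values that rest on 4 reads in *T. mairei* replicate 1 and none in replicate 2. Against a floor of 3 counts summed over the *T. mairei* libraries with counts, comp21730_c0 was at least 573-fold higher in *T. cuspidata* and at least 96.8-fold higher in *T. media*, bounds that cover counting error only. The second bound fell to 46.6-fold without *T. media* replicate 1. These differences were called at adjusted p values of 0.00034 and 0.0014 by edgeR.

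The neighbouring unigenes comp23629_c1 (LOX1.4, 2024 bp) and comp23629_c0 (Os03g0699700, 849 bp) came from one Trinity component and moved alike. comp23629_c1 had 8.73, 14.17 and 28.34 TPM in *T. media*, 0.11, 0 and 0 TPM in *T. cuspidata*, and 3.35, 1.77 and 0.25 TPM in *T. mairei*. comp23629_c0 had 25.82, 35.63 and 63.62 TPM in *T. media*, 0.06, 0.22 and 0 TPM in *T. cuspidata*, and 7.84, 4.88 and 0.99 TPM in *T. mairei*. In both, *T. media* was highest and *T. cuspidata* nearly empty, and the replicates spread widely within *T. media* and within *T. mairei*.

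For *T. media* vs. *T. cuspidata*, the log2 fold change was 8.83 (SE 1.05, adjusted p = 0.00054) for comp23629_c1 and 8.65 (SE 0.78, adjusted p = 0.00015) for comp23629_c0 in edgeR. *T. mairei* was also above *T. cuspidata*, by 6.77 (SE 1.04, adjusted p = 0.00078) and 6.63 (SE 0.78, adjusted p = 0.00019). In reads, comp23629_c1 had 10, 0 and 0 in *T. cuspidata*, so its values against that species rest on 1 library, without which they were 13.65 and 11.59. Between *T. media* and *T. mairei* the calls were unstable. comp23629_c0 was called at 2.03 (SE 0.61, adjusted p = 0.023), but not without *T. media* replicate 3 (1.55), *T. mairei* replicate 1 (2.39) or *T. mairei* replicate 2 (1.73). comp23629_c1 missed the threshold at 2.06 (SE 0.81, adjusted p = 0.062) and passed it without *T. media* replicate 1 (2.39) or *T. cuspidata* replicate 1 (2.05), and with the recovered reads (2.57).

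The 3 unigenes of component comp14123 were the 9-lipoxygenase names with the highest mean in *T. mairei*. comp14123_c2 (LOX1, 518 bp) had 0.70, 1.64 and 0 TPM in *T. media*, 0, 0.22 and 0 TPM in *T. cuspidata*, and 4.16, 9.21 and 11.99 TPM in *T. mairei*. Its fitted log2 fold changes, described without a test, were -3.82 (SE 1.19) for *T. media* vs. *T. mairei*, 6.93 (SE 1.49) for *T. mairei* vs. *T. cuspidata* and 3.11 (SE 1.51) for *T. media* vs. *T. cuspidata*. The last 2 values rest on a single library of *T. cuspidata* with 4 reads.

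Its neighbours had the same order. comp14123_c0 (LOX1.1, 1098 bp) had 1.60, 2.45 and 0.29 TPM in *T. media*, 1.05, 0.50 and 0.33 TPM in *T. cuspidata*, and 3.68, 10.38 and 13.98 TPM in *T. mairei*. comp14123_c1 (LOX1.1, 476 bp) had 0.49, 0.82 and 0 TPM in *T. media*, 1.21, 0 and 0 TPM in *T. cuspidata*, and 4.24, 9.14 and 10.61 TPM in *T. mairei*. In all 3 unigenes every *T. mairei* library was above every other library, *T. mairei* replicate 1 was the lowest of its species, and *T. media* and *T. cuspidata* overlapped. Summed over the component, the level was 12.1, 28.7 and 36.6 TPM in *T. mairei* and at most 4.91 TPM elsewhere.

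For comp14123_c0, edgeR gave -3.00 (SE 0.82, adjusted p = 0.015) for *T. media* vs. *T. mairei* and 4.13 (SE 0.86, adjusted p = 0.0038) for *T. mairei* vs. *T. cuspidata*. The first call was lost without *T. mairei* replicate 2 (-2.06). For comp14123_c1, the values were -4.64 (SE 1.48, adjusted p = 0.028) and 4.74 (SE 1.49, adjusted p = 0.024). Leaving out any one of the *T. media* libraries or either *T. mairei* library ended the first call (-5.39 to -3.97), and leaving out *T. mairei* replicate 1 or 2 ended the second (5.19 and 4.06). With 16, 0 and 0 reads in *T. cuspidata*, the second value also rests on replicate 1 of that species, without which it was 10.26. Both unigenes share the component of comp14123_c2, which helped to choose the family, so they may not be independent of that choice.

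The remaining 9-lipoxygenase names were comp25504_c1 and comp1434_c0. comp25504_c1 (LOX1.5, 2960 bp) had 19.86, 15.01 and 17.36 TPM in *T. media*, 19.16, 13.17 and 14.81 TPM in *T. cuspidata*, and 13.35, 17.20 and 20.50 TPM in *T. mairei*. All 3 species overlapped, and no comparison was called: the log2 fold changes were 0.05 (SE 0.17, adjusted p = 0.87), -0.54 (SE 0.19, adjusted p = 0.045) and 0.59 (SE 0.19, adjusted p = 0.03) in edgeR. It was the one long member at a like level in all 3 species.

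comp1434_c0 (LOX1.1, 359 bp), which carried no ortholog, had 2.78, 3.98 and 6.29 TPM in *T. media*. It had 0.26, 0 and 0 TPM in *T. cuspidata* and 0, 0 and 0.17 TPM in *T. mairei*. With 105 reads in *T. media* and 2 in *T. cuspidata*, the ratio per counted read was 60.5 (95% exact binomial interval 16.3 to 506, counting error only), and with 2 reads in *T. mairei*, recovered ones included, it was 56.1 (15.2 to 469.7). Both differences were called by edgeR. comp1434_c0 passed the filter on low counts through *T. media* alone, so no p is given.

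**Figure D3:**
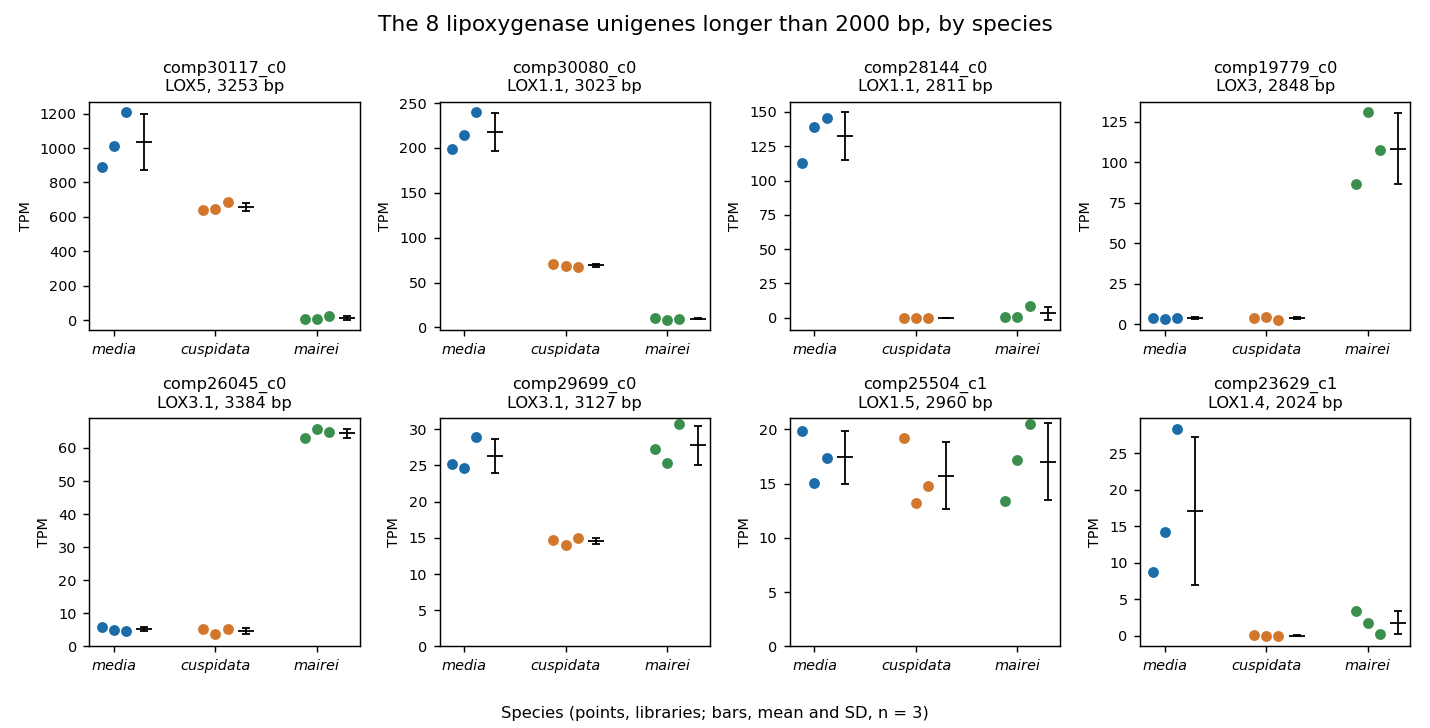
TPM of the 8 lipoxygenase unigenes longer than 2000 bp, with a separate linear axis for each. Coloured points are libraries, and the bars are the mean and SD of each species (n = 3). comp30117_c0 and comp30080_c0 fall from *T. media* over *T. cuspidata* to *T. mairei*, comp19779_c0 and comp26045_c0 are high in *T. mairei* only, and the species overlap in comp25504_c1, at 13.17 to 20.50 TPM.

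Among the 13-lipoxygenase names, comp19779_c0 and comp26045_c0 were high in *T. mairei* and at a low and like level in the other species. comp19779_c0 (LOX3, 2848 bp) had 3.95, 3.39 and 4.11 TPM in *T. media*, 4.05, 4.34 and 2.91 TPM in *T. cuspidata*, and 86.86, 130.93 and 107.74 TPM in *T. mairei*. comp26045_c0 (LOX3.1, 3384 bp) had 5.92, 4.96 and 4.76 TPM in *T. media*, 5.25, 3.68 and 5.19 TPM in *T. cuspidata*, and 62.92, 65.66 and 64.76 TPM in *T. mairei*. In both unigenes *T. media* and *T. cuspidata* overlapped, and all *T. mairei* libraries were above 60 TPM.

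comp19779_c0 had a log2 fold change of -5.54 (SE 0.25, adjusted p = 4.1e-06) for *T. media* vs. *T. mairei* and 5.48 (SE 0.25, adjusted p = 2.4e-06) for *T. mairei* vs. *T. cuspidata* in edgeR. For comp26045_c0 the values were -4.33 (SE 0.19, adjusted p = 3.8e-06) and 4.39 (SE 0.19, adjusted p = 1.9e-06). Between *T. media* and *T. cuspidata* neither was called, at -0.06 (SE 0.20, adjusted p = 0.88) and 0.06 (SE 0.16, adjusted p = 0.81). Since comp19779_c0 is on the study's list of JA-related unigenes, its p-values are not independent evidence.

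A second pair of LOX3.1 unigenes was lower in *T. cuspidata* by a smaller step. comp29699_c0 (3127 bp) had 25.24, 24.58 and 28.96 TPM in *T. media*, 14.76, 14.07 and 14.92 TPM in *T. cuspidata*, and 27.27, 25.32 and 30.65 TPM in *T. mairei*. comp83150_c0 (416 bp) had 53.57, 53.23 and 58.38 TPM in *T. media*, 34.81, 35.92 and 41.26 TPM in *T. cuspidata*, and 58.33, 56.10 and 69.65 TPM in *T. mairei*. *T. cuspidata* was below both other species without overlap, while *T. media* and *T. mairei* overlapped. The deposited counts of these unigenes, and of comp19779_c0 and comp26045_c0, held fractions, so some of their reads were shared out between unigenes and their levels are uncertain to that extent.

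The comparison of *T. mairei* with *T. cuspidata* was called by edgeR for comp29699_c0 at 1.47 (SE 0.13, adjusted p = 4.4e-05) and for comp83150_c0 at 1.23 (SE 0.15, adjusted p = 0.00027). On TPM, limma gave 0.88 to 0.92 and 0.70 to 0.71 for these, under the threshold of 1. The median over all unigenes also moved with this unit, from 0.06 to -0.40 on log2(TPM + 1). Between *T. media* and *T. cuspidata* they were at 0.77 (SE 0.12, adjusted p = 0.0017) and 0.48 (SE 0.14, adjusted p = 0.03), and for *T. media* vs. *T. mairei* at -0.70 (SE 0.13, adjusted p = 0.0023) and -0.76 (SE 0.15, adjusted p = 0.0039), none of which reached the threshold of 1.

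Component comp13987 had no read in *T. mairei*. comp13987_c1 (LOX3.1, 340 bp) had 6.07, 6.94 and 19.60 TPM in *T. media* and 14.55, 22.22 and 24.19 TPM in *T. cuspidata*. comp13987_c0 (LOX2.3, 206 bp) had 8.67, 9.75 and 39.19 TPM in *T. media* and no read in *T. cuspidata*. In both unigenes *T. media* replicate 3 was the highest of its species.

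comp13987_c1 was at least 50.5-fold higher in *T. media* (adjusted p = 0.001) and at least 99.1-fold higher in *T. cuspidata* (adjusted p = 0.00049, edgeR) than in *T. mairei*, against the floor of 3 counts. The first bound fell to 29.4-fold without *T. media* replicate 3. Between *T. media* and *T. cuspidata* its log2 fold change was -0.97 (SE 0.54, adjusted p = 0.2), and -1.76 and called without *T. media* replicate 3. comp13987_c0 was at least 25.4-fold higher in *T. media* than in *T. cuspidata* and at least 16.3-fold higher than in *T. mairei*, and without *T. media* replicate 3 these bounds fell to 11.8-fold and 7.58-fold. It passed the filter on low counts through *T. media* alone, so no p is given. Its 13, 11 and 51 reads in the *T. media* libraries lay on an effective length of 25.67 bases.

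Unigenes with reads in *T. mairei* alone were comp113191_c0 and comp135533_c0. comp113191_c0 (Os03g0179900, 242 bp) had 15.57, 17.93 and 21.63 TPM in *T. mairei* and no read in the other 6 libraries. It was at least 68.6-fold higher than in *T. media* and at least 67.9-fold higher than in *T. cuspidata*, against the floor of 3 counts. comp135533_c0 (LOX4, 319 bp) had 1.55, 1.30 and 0 TPM in *T. mairei*, with no read elsewhere. *T. mairei* replicate 3 was at 0, like the other species. Both unigenes passed the filter on low counts through *T. mairei* alone, so no p is given. Their deposited counts also held fractions, so some of their reads were shared out between unigenes. The levels and bounds are uncertain to that extent.

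Calls were counted without the 2 unigenes that chose the family. When *T. media* was compared with *T. cuspidata*, 7 of 19 members (36.8%) were called higher in *T. media*, where 15.7% of all tested unigenes were. In *T. cuspidata* 2 of 19 (10.5%) were called higher, where 10.1% were. Of the 10 members with 9-lipoxygenase names, 5 were called higher in *T. media* and 2 in *T. cuspidata*. Of the 7 with 13-lipoxygenase names, the one called was comp13987_c0, which has reads in *T. media* alone. Since the family was selected on this contrast, nothing is read from these counts and shares. Of the 16 members with reads in both species, 6 were called higher in *T. media* and 2 in *T. cuspidata*. Those higher in *T. media* were comp30117_c0, comp30080_c0, comp4234_c0, comp23629_c1, comp1434_c0, comp23629_c0 and comp13987_c0, and those higher in *T. cuspidata* were comp38164_c0 and comp21730_c0. The median log2 fold change of the 16 was 0.62, beside 0.04 over all unigenes.

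Between *T. media* and *T. mairei* calls went both ways in both classes of name. In total 9 of 19 members (47.4%) were called higher in *T. media*, against 20.8% of all tested unigenes, and 6 of 19 (31.6%) higher in *T. mairei*, against 23.5%. Of the 10 members with 9-lipoxygenase names, 6 were higher in *T. media* and 2 in *T. mairei*. Of the 7 with 13-lipoxygenase names, 2 were higher in *T. media* and 3 in *T. mairei*. The count of 6 fell to 3 without *T. mairei* replicate 2, and also to 3 when a mean count of at least 50 was required. Of the 13 members with reads in both species, 5 were called higher in *T. media* and 4 in *T. mairei*, with a median log2 fold change of -0.54, beside 0.02 over all unigenes.

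When *T. mairei* was compared with *T. cuspidata*, 5 of the 7 members with 13-lipoxygenase names were higher in *T. mairei* and 1 in *T. cuspidata*, while 3 of the 10 with 9-lipoxygenase names were higher in *T. mairei* and 4 in *T. cuspidata*. In all, 10 of 19 members (52.6%) were called higher in *T. mairei*, beside 27.8% of all tested unigenes, and 5 of 19 (26.3%) higher in *T. cuspidata*, beside 21.5%. With limma on log2(TPM + 1) in place of the counts, the 10 became 6. With reads in both species, 8 of 13 members were called higher in *T. mairei* and 3 in *T. cuspidata*, with a median log2 fold change of 1.47, beside 0.06 over all unigenes.

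These comparisons share libraries, so their calls are not independent. Of the 19 members, 5 were called in all 3 comparisons, 11 in 2, 2 in 1 and comp25504_c1 in none. The counts over 19 members include comp113191_c0, comp135533_c0 and comp13987_c0, which have reads in one species only and so had to differ. They also include comp1434_c0, which passed the filter on low counts through *T. media* alone. The shares over all unigenes include such unigenes too, and nothing is read from these counts. The calls of comp135533_c0 were lost without *T. mairei* replicate 2, with DESeq2, with limma on log2(TPM + 1) and with a replicate block. Without *T. mairei* replicate 1, with the recovered reads, or with a mean count of at least 50 required, it was not tested and so not called.

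**Figure D4:**
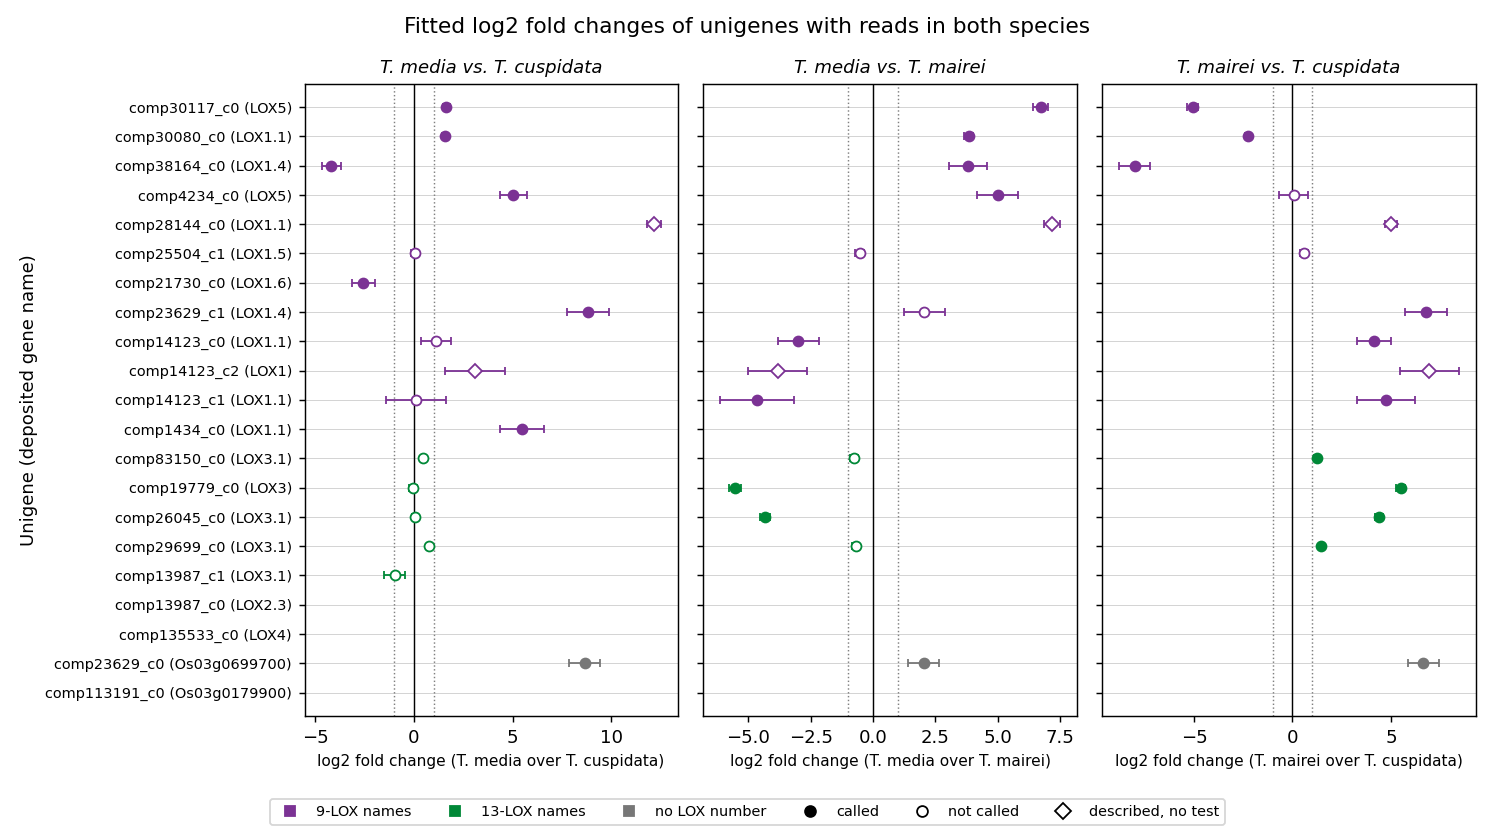
Fitted log2 fold changes with standard errors in the 3 comparisons, for members with counted reads in both species compared. Filled circles were called, open circles were not, diamonds are the 2 unigenes that chose the family, and dotted lines mark log2 fold changes of -1 and 1. The long LOX3 and LOX3.1 unigenes comp19779_c0 and comp26045_c0 lie near 0 in the first panel, at -0.06 and 0.06, and beyond 4 units towards *T. mairei* in the others.

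Lipoxygenases stand at the head of the JA route, so its other enzymes were read from the same fit by a list of 17 KEGG orthologs, lipoxygenases not included. The list also held enzymes outside that route (hydroperoxide lyase, divinyl ether synthase and alpha-dioxygenase) and the JA signaling genes COI1, JAZ and MYC2. Among these additions, only alpha-dioxygenase was found. Of the 17 orthologs, 9 were found, on 44 unigenes, and no unigene carried any of the other 8 as its deposited ortholog. Genes of those 8 under another annotation were not sought. Among the 43 unigenes tested, 12 were called higher in *T. media* and 3 in *T. cuspidata* when these were compared. Over all tested unigenes the shares were 15.7% and 10.1%. The median log2 fold change was 0.86, beside 0.04 over all unigenes. Against *T. mairei*, 8 were called higher in *T. media* and 12 lower, beside 20.8% and 23.5% (median -0.78, beside 0.02). Of *T. mairei* and *T. cuspidata*, the former was called higher for 21 and the latter for 6, beside 27.8% and 21.5% (median 1.12, beside 0.06). Nothing is read from these counts. For *T. media* vs. *T. mairei*, the count of 12 fell to 7 without *T. mairei* replicate 2, and the count of 8 rose to 15 with limma on TPM.

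Allene oxide synthase and allene oxide cyclase act directly after 13-lipoxygenase. The 3 allene oxide synthase unigenes summed to 295 ± 66.9 TPM in *T. media*, 144 ± 25.2 TPM in *T. cuspidata* and 66.7 ± 3.26 TPM in *T. mairei* (SD, n = 3). The main allene oxide synthase unigene, comp25282_c0 (CYP74A), had 168.91, 257.49 and 289.48 TPM in *T. media*, 102.92, 114.57 and 142.93 TPM in *T. cuspidata*, and 7.04, 3.88 and 14.53 TPM in *T. mairei*. For this unigene *T. mairei* was lowest without overlap, by a log2 fold change of 4.76 from *T. media* (SE 0.41, adjusted p = 5.6e-05) and of -3.85 relative to *T. cuspidata* (SE 0.39, adjusted p = 9.2e-05) in edgeR. The one allene oxide cyclase unigene, comp29172_c0 (AOC2), had 167.92, 174.87 and 160.97 TPM in *T. media*, 46.71, 55.57 and 59.07 TPM in *T. cuspidata*, and 42.12, 30.45 and 34.89 TPM in *T. mairei*. It was called higher in *T. media* than in *T. cuspidata* (1.56, adjusted p = 0.00028) and than in *T. mairei* (1.51, adjusted p = 0.00032), and was not called between the latter (0.05, adjusted p = 0.84, edgeR).

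Further down the route, the main unigenes of 4 enzymes were called higher in *T. mairei* than in *T. cuspidata*. The main unigene of 12-oxophytodienoate reductase, comp149713_c0 (OPR11), had 94.48, 41.15 and 23.69 TPM in *T. media*, 12.9, 8.19 and 28.85 TPM in *T. cuspidata*, and 143.26, 198.99 and 96.49 TPM in *T. mairei*. It was called for *T. media* vs. *T. mairei* (-2.40, adjusted p = 0.013) and *T. mairei* vs. *T. cuspidata* (3.94, adjusted p = 0.0014) by edgeR. Over its 12 unigenes, the reductase summed to 341 ± 71.7 TPM in *T. media*, 141 ± 21.5 TPM in *T. cuspidata* and 339 ± 175 TPM in *T. mairei* (SD, n = 3), so the mean sums of *T. media* and *T. mairei* were close, with a wide spread in *T. mairei*. In *T. mairei* vs. *T. cuspidata*, OPC-8:0 CoA ligase (comp29980_c0, 4CLL5) was called at 1.01 (SE 0.18, adjusted p = 0.0017) and acyl-CoA oxidase (comp95908_c0, ACX2) at 3.25 (adjusted p = 0.0043) by edgeR. The ligase barely passed the threshold of 1. It had 45.49, 45.41 and 45.71 TPM in *T. mairei* and 45.07, 29.51 and 29.79 TPM in *T. cuspidata*. The thiolase unigene comp12753_c0 (PED1), which acts in beta-oxidation, had 196.14, 183.09 and 182.73 TPM in *T. mairei*, no read in *T. cuspidata*, and 45.77, 1.99 and 0 TPM in *T. media*, and was called against *T. cuspidata* (adjusted p = 0.0085, edgeR).

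The other main unigenes were those of the multifunctional protein, alpha-dioxygenase and jasmonate methyltransferase. The multifunctional protein of beta-oxidation (comp30515_c0) was called in no comparison, with a mean of 69.5 TPM in *T. media*, 66.5 TPM in *T. cuspidata* and 32.1 TPM in *T. mairei*, whereas its 9 unigenes summed to 220.4 ± 17.9, 138 ± 6.58 and 265 ± 24.7 TPM (SD, n = 3). Alpha-dioxygenase (comp25222_c0, DOX1), which oxygenates fatty acids at another carbon than lipoxygenase, had 63.21, 62.9 and 75.54 TPM in *T. media* and at most 4.71 TPM in any other library. It was called against *T. cuspidata* at 4.48 (adjusted p = 0.00076) and against *T. mairei* at 6.93 (adjusted p = 0.00022) by edgeR. A methyltransferase unigene (comp29290_c0, SAMT) was called for *T. media* vs. *T. mairei* only, at 1.28 (adjusted p = 0.0019, edgeR), with means of 39.7, 20.5 and 11 TPM; whether this differs between the comparisons was not tested. The 4 methyltransferase unigenes summed to 43.8 ± 7.07 TPM in *T. media*, 55.5 ± 14.3 TPM in *T. cuspidata* and 17.5 ± 5.9 TPM in *T. mairei* (SD, n = 3).

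Unigenes with a pattern most like that of 3 members were sought by Pearson's r on log2(TPM + 1) over the 9 libraries, among 10224 named unigenes outside the family with a mean TPM of at least 5. For comp28144_c0 these were comp207814_c0 (TDT, r = 0.9927), comp15046_c0 (Lipf, r = 0.9900) and comp23431_c1 (MUR4, r = 0.9884). For comp14123_c2 they were comp211256_c0 (PSKR1, r = 0.9866), comp21004_c0 (GNS1, r = 0.9830) and comp23299_c0 (CPK8, r = 0.9813). comp30117_c0 was most like comp30453_c0 (At5g49770, r = 0.9976), comp30074_c0 (GTE10, r = 0.9973) and comp29188_c0 (At4g08350, r = 0.9969). The 9 libraries are 3 groups of 3, so r mostly measures the difference between species.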

How the data were processed

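The authors sequenced poly(A) RNA of twigs in 9 libraries and co-assembled the reads of all species with Trinity. They deposited expected counts per unigene, partly fractional and not normalized, for 8 libraries and TPM for all 9. For *T. mairei* replicate 3 they deposited RPKM in place of counts. The aligner and counter are not given in the sources used here. Since TPM has the same total in each library, a unigene's TPM also moves with all others.

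Rounded counts were fitted with edgeR 4.0.16 under R 4.3.3, with TMM normalization (factors of 0.933 to 1.157), the filterByExpr filter and a mean for each species, so *T. mairei* entered with 2 libraries. Alternatives used DESeq2 1.42.0 and limma 3.58.1. For one alternative, the reads of *T. mairei* replicate 3 were recovered from its RPKM, which gave whole reads, within 0.1, for 97.9% of 2994 low values. Sums of TPM have no test.

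Members and lists were chosen with earlier results of these data known. Named are comp28144_c0, comp14123_c2, comp19779_c0, every member with a mean of at least 5 TPM in a species, members called in at least 2 comparisons and, for each JA-route ortholog, its most abundant unigene. Names without a LOX number, which the plan placed by ortholog, were kept apart, because all members with an ortholog share one. Sums without comp30117_c0, calls over all 21 members and fold bounds without a library were added after the data were seen.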

Additional observations from a re-analysis of the deposited data

How the results depend on the processing

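Of the values of single members under all alternatives, 999 stayed on their side of the threshold, 33 lost a call and 9 gained one. No called value changed direction. Of the counts and sums, 301 stayed within the limits set for them and 26 did not, and the cause of those shifts was not tested except where stated. The called members higher in *T. mairei* than in *T. media* numbered 3 in place of 6 when a mean count of at least 50 was required, which tests fewer unigenes, and 3 to 6 when a library was left out. Those higher in *T. mairei* than in *T. cuspidata* numbered 6 in place of 10 with limma on log2(TPM + 1). The JA-route unigenes higher in *T. media* than in *T. mairei* numbered 15 in place of 8 with limma on log2(TPM + 1) or log2(TPM + 0.1), and those higher in *T. mairei* 7 to 14 without a library, in place of 12. Limma on log2(TPM + 1) also moved the median of all unigenes, to 0.60 for *T. media* vs. *T. mairei*.

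The ratio of summed 9-lipoxygenase names, 1.63 for *T. media* to *T. cuspidata*, was 2.88 on RPKM and 3.34 on normalized counts. Between *T. media* and *T. mairei* it was 20.4, and 8.7 without comp30117_c0. For *T. mairei* to *T. cuspidata* it was 0.0799, and 0.164 on RPKM, 0.174 on normalized counts and 0.201 without comp30117_c0. The ratio of summed 13-lipoxygenase names, 1.49 for *T. media* to *T. cuspidata*, was 2.01 with the 2 rice locus names added. For *T. media* to *T. mairei* (0.458) it was 0.321 on RPKM and 0.124 on normalized counts, which are not divided by length, and for *T. mairei* to *T. cuspidata* (3.26) it was 5.08 and 11.4. The ratio of 9- to 13-lipoxygenase names in *T. media* (13.4) was 10.1 with the rice locus names, 16.6 on RPKM, 25 on normalized counts and 4.71 without comp30117_c0. In *T. cuspidata* (12.1) it was 9.24 on RPKM, 10.6 on normalized counts, 9.58 over members with an effective length of at least 100 and 3.95 without comp30117_c0, and in *T. mairei* (0.293) it was 0.163 on normalized counts. No alternative moved a ratio across 1. By ortholog alone, all members that have one would fall in the 13-lipoxygenase class, so no ratio of the classes could be formed. The split into 9- and 13-lipoxygenases thus rests on the names.

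Same-numbered libraries of different species did not deviate together, with correlations of -0.058 to 0.044, and not every library correlated best with its own number, so the numbers were not taken as pairs. With a replicate block, the members called were 6 and 2 for *T. media* vs. *T. cuspidata*, 7 and 4 for *T. media* vs. *T. mairei* and 8 and 5 for *T. mairei* vs. *T. cuspidata*, where the first number is that higher in the first species. Short members with few reads are limited by depth, and 10 are under 600 bp.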
